A study of Danio rerio with 9 samples.

Results

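Expression of 8 genes grouped as yolk and liver plasma protein genes (apobb.1, apoc1, apoa1a, apoa4b.1, afp4, tfa, fetub and fabp1b.1) was examined in eyes dissected from zebrafish embryos. Among them, fabp1b.1 encodes a protein that stays within cells and is not a plasma protein. These genes were 8 of 8793 genes with 1 symbol in the array annotation, and each was measured by 1 probe set that carried its symbol alone. They were selected on measured values of these same 9 arrays, namely their lower level at later stages and their difference between the arrays at 30 hours post fertilization (hpf). Their levels are therefore given as a description, with no test. The study compared untreated eyes at 24 hpf with control and ethanol-exposed eyes at 27, 30, 36 and 48 hpf, with 1 Affymetrix array and no replicate for each of the 9 conditions. All samples were total RNA of embryonic eye, and the labels used here name no strain, ethanol dose, start or length of exposure, or number of embryos behind a sample.

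In a zebrafish embryo, the yolk syncytial layer takes up yolk lipid and packs it into lipoproteins for the blood. It also makes many plasma proteins before the liver does so. Apolipoproteins form the coat of these particles and direct how they are assembled, taken up and broken down. At these stages the head lies over the yolk, so such genes raise the question of what tissue came along with the dissected eyes, which these arrays do not measure directly. In bulk tissue, fewer cells of a type and less RNA per cell cannot be told apart.

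The measured quantity was the MAS5 signal of a probe set, which gives its brightness on a linear scale. Every array had a trimmed mean of 125 (2% taken off each end), so all shared 1 overall level. The median signal ran from 36.3 on the 30 hpf control array to 44.7 on the 48 hpf ethanol array. Precision is limited by having so few arrays, and nothing states that samples came from separate clutches. The titles define the groups, but the treatment field of the labels calls the 30 hpf ethanol and 36 hpf ethanol samples untreated and the 36 hpf control sample ethanol. Of 23 retina and lens markers in the table, none stayed below a signal of 20 on every array, and 22 passed the filter on low signals. Over all 8793 genes, 6111 passed it. All 8 genes passed that filter, which used the mean over the 9 arrays. Only apoa1a was above the array median on all 9 arrays.

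The 4 apolipoprotein genes had their lowest signal on the 30 hpf control array. The gene apoa1a, for the main protein of high-density lipoprotein, had a signal of 946 at 24 hpf, then 535, 94.3, 330 and 157 in controls at 27, 30, 36 and 48 hpf and 1154, 1171, 361 and 261 with ethanol. The gene apobb.1, for the B-type apolipoprotein that frames large lipid-rich particles, had 143 at 24 hpf, then 101, 13.2, 63.0 and 17.3 in controls and 161, 244, 48.4 and 42.0 with ethanol. In both genes the 30 hpf control lay below its neighbours at 27 and 36 hpf, while the 30 hpf ethanol array was above the level of 24 hpf. The gene apoc1, for a small exchangeable apolipoprotein, had 461 at 24 hpf, then 216, 31.8, 155 and 53.1 in controls and 462, 458, 88.5 and 80.3 with ethanol. The gene apoa4b.1, of the apolipoprotein A-IV family, had 97.1 at 24 hpf, then 66.9, 6.62, 18.7 and 15.3 in controls and 117, 123, 11.5 and 9.75 with ethanol. For both, the ethanol arrays at 27 and 30 hpf were close to or above the 24 hpf level, and the ethanol array was below the control at 36 hpf.

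The other 4 genes had their lowest signal on the 48 hpf control array and their second lowest on the 30 hpf control array. The gene afp4, for a plasma protein of the type IV antifreeze family with an apolipoprotein-like fold, had 386 at 24 hpf, then 224, 30.4, 72.6 and 16.9 in controls and 413, 394, 99.6 and 36.1 with ethanol. The gene tfa, for the iron carrier transferrin, had 304 at 24 hpf, then 218, 48.3, 51.4 and 16.2 in controls and 320, 319, 52.8 and 52.4 with ethanol. These 2 genes were nearly level from 24 to 30 hpf in ethanol arrays and lower at 36 hpf. The gene fetub, for a secreted protease inhibitor made by the liver, had 108 at 24 hpf, then 62.0, 11.7, 27.1 and 9.86 in controls and 166, 149, 61.4 and 29.2 with ethanol. The gene fabp1b.1, for a fatty acid-binding protein that stays within liver and gut cells, had 229 at 24 hpf, then 100.2, 33.7, 58.3 and 29.3 in controls and 252, 253, 148 and 65.2 with ethanol. For all 4 of these genes, as for apoa1a, the ethanol array was the brighter at all 4 stages. The difference was slight for tfa at 36 hpf (51.4 and 52.8).

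**Figure D1:**
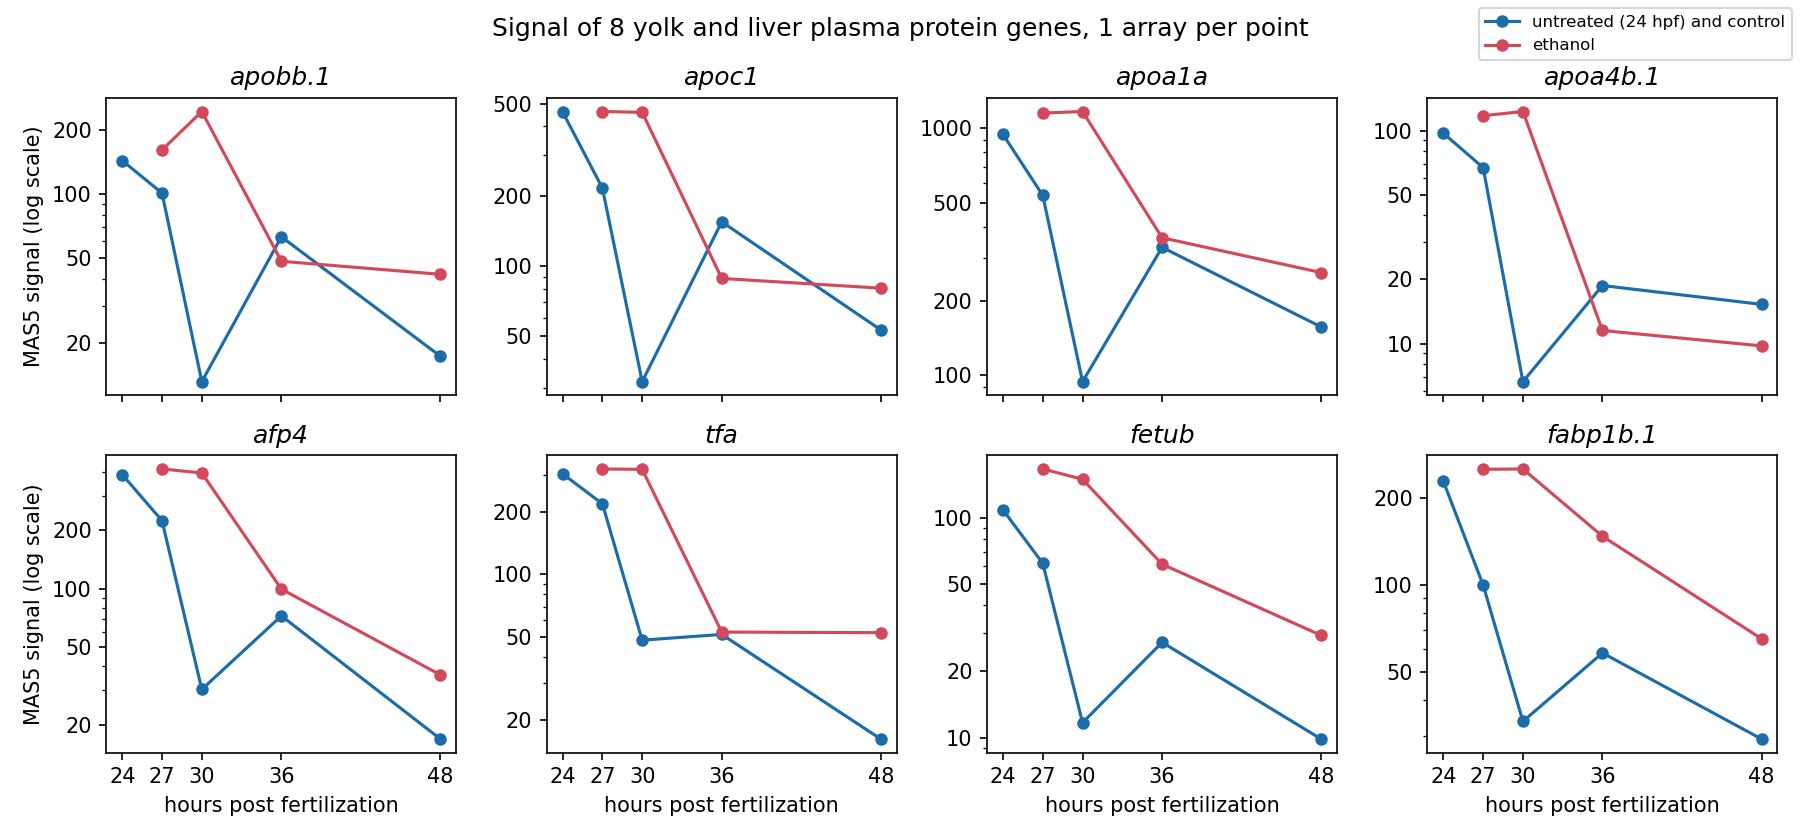
MAS5 signal (log axis, a separate range in each panel) of the 8 genes against hours post fertilization, with 1 array per point, for untreated and control eyes (blue) and ethanol-exposed eyes (red). In every panel the blue point at 30 hpf lies below the blue point at 36 hpf, and the red point at 30 hpf lies close to or above the level of 24 hpf.

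Of the 2 arrays at 30 hpf, the control departed further from the neighbouring stages of its own group. A line was drawn on the log2(signal + 5) scale from 27 to 36 hpf within each group, a measure chosen after the values were seen. The 30 hpf control lay below its line for 8 of 8 genes, by -1.2 (fabp1b.1) to -2.43 (apoc1) on the log2 scale, with a median of -2.13. The 30 hpf ethanol array lay above its line for 8 of 8 genes, by 0.25 (fabp1b.1) to 1.13 (apobb.1), with a median of 0.68. All 8 genes were at least 2-fold below the line on the control array and 2 were at least 2-fold above it on the ethanol array, apobb.1 and apoa4b.1. Over all 9301 probe sets kept, 0.409% were that far below the line on the control array, 0.376% that far above it, and 0.14% that far above it on the ethanol array. A probe set entered these counts only if its signal was above the array median at 27, 30 or 36 hpf in that group.

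The same departure shows in the ratios between arrays, taken as (signal + 5). From 27 to 30 hpf the control signal was 2.71 times (fabp1b.1) to 6.47 times (afp4) lower. The 36 hpf control was then above the 30 hpf control by 1.06 times (tfa) to 4.34 times (apoc1), and at least 2-fold in 5 of the 8 genes, these being the 4 apolipoprotein genes and afp4. The 30 hpf ethanol signal was 0.90 to 1.5 times that of the 27 hpf ethanol array and 0.996 to 1.67 times that of the untreated array at 24 hpf. So the ratio of ethanol to control at 30 hpf, 6.08 (tfa) to 13.7 (apobb.1), had a low control array and an ethanol array close to the earlier stages. The treatment field of the labels would make both 30 hpf arrays untreated, and the 2 arrays would then differ by the same ratios with no named difference between them.

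**Figure D2:**
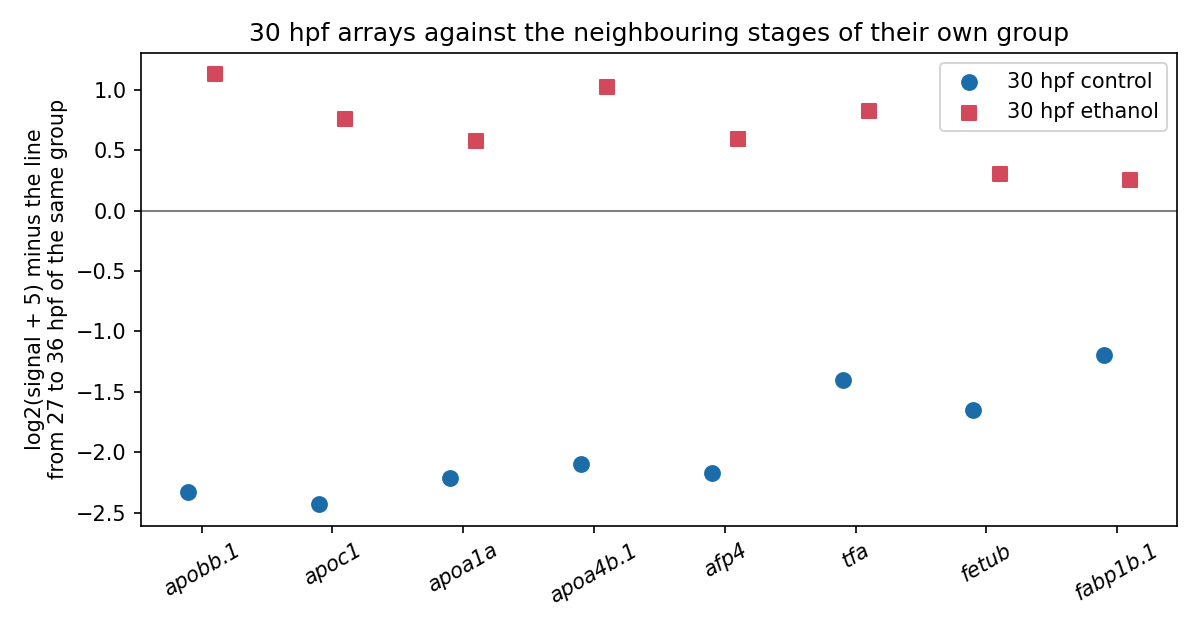
Distance of the 30 hpf arrays from the line between 27 and 36 hpf of their own group, in log2(signal + 5), for the control (blue circles) and the ethanol array (red squares) of the 8 genes. The control points lie between -2.43 and -1.2 and the ethanol points between 0.25 and 1.13.

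Over development, all 8 genes were lower at 48 hpf than at 24 hpf. The ratio of (signal + 5) at 24 hpf to that in the 48 hpf control was 5.04 (apoa4b.1) to 17.9 (afp4), with a median of 7.23. From 27 to 48 hpf in ethanol arrays it was 3.53 (apobb.1) to 10.2 (afp4), with a median of 5.25. The slope over the 9 arrays, with ethanol as a term, was -2.19 (apoa1a) to -3.81 (afp4) on the log2 scale per 24 hours, with a median of -2.55. That median was -2.82 without the 30 hpf control array and -4.14 without both 48 hpf arrays. Among untreated and control arrays the order of stages was not even, and for every gene but tfa the 30 hpf array was closer to 48 hpf than to 27 or 36 hpf.

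The ethanol difference varied among stages and among genes. At 27 hpf all 8 genes were brighter with ethanol, by 0.55 (tfa) to 1.36 (fetub) on the log2 scale, and 4 were at least 2-fold apart (fetub, fabp1b.1, apoa1a and apoc1), against 0.806% of all probe sets. At 30 hpf all 8 were at least 2-fold brighter, by 2.60 to 3.77 with a median of 3.48, against 3.06% of all probe sets. These counts describe values that chose the genes. At 36 hpf the median was 0.08, and the genes differed in sign. There fabp1b.1 and fetub were at 1.27 and 1.05, while apobb.1, apoa4b.1 and apoc1 were at -0.35, -0.52 and -0.78. In that stage 2 of 8 genes were at least 2-fold brighter, against 1.2% of all probe sets. At 48 hpf 7 of 8 were brighter, from 0.55 (apoc1) to 1.44 (tfa), and apoa4b.1 was at -0.46. There, 4 genes were at least 2-fold apart, and 2 of them, tfa and fabp1b.1, also had a brighter signal above the median of its array, as did 4.56% of all probe sets. Without the 30 hpf pair, the mean difference over the other 3 stages ran from -0.07 (apoa4b.1) to 1.2 (fetub), with a median of 0.66 against 3.48 at 30 hpf.

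The 8 profiles were alike, which their selection favours. Over the 9 arrays, the Pearson correlation between any pair was 0.81 to 0.99, the lowest for apoa4b.1 with fabp1b.1 and the highest for fetub with fabp1b.1. These are descriptions over arrays that all genes share. In the reference annotation (RefSeq, GRCz12tu), apoc1 and apoa4b.1 lie in 1 cluster with 5 protein-coding genes between them, and apoa4b.1 has close paralogs whose transcripts its probes may share. A further 2 probe sets are annotated jointly to gstr and tfa. The first of them followed tfa, with 33.3 (control) and 247 (ethanol) at 30 hpf, and the second did not, with 186 and 270.

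Other genes of yolk and liver were set beside the selected ones. The lists used here held 163 other genes of yolk and liver, of which 97 were in the table and 35 passed the filter on low signals. Among these 35, limma's slope over the 9 arrays called 6 lower and 3 higher with development (Benjamini-Hochberg adjusted p under 0.05 and at least 2-fold over 24 hours), against 7.39% and 9.07% of all probe sets. The median slope of the 35 was 0.01, beside -0.07 over all 6111 genes kept. The count of 6 was 3 without the 48 hpf arrays, 3 in the untreated and control arrays alone and 2 when the groups followed the treatment field.

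Of 7 lipoprotein genes above the filter, 3 fell with development and none rose, against 7.39% and 9.07% of all probe sets. The gene apoa2, for the second protein of high-density lipoprotein, fell by 1.66 (SE 0.49, adjusted p = 0.0194). Its signal was 727 at 24 hpf and 172 in the 48 hpf control. The gene apoa4b.2, a paralog of apoa4b.1, fell by 1.89 (SE 0.50, adjusted p = 0.0119), and apoc2, the activator of lipoprotein lipase, fell by 1.3 (SE 0.35, adjusted p = 0.0119). Both lie in the chromosomal cluster of apoc1, as apoa2 does. At 30 hpf, 4 of the 7 were at least 2-fold brighter with ethanol, against 3.06% of all probe sets. Their differences were 2.61 (apoa4b.2), 2.42 (apoa2), 1.96 (apoc2) and 1.00 (apoeb, named after its value was seen). All 4 lie in the apoc1 cluster, with 0 protein-coding genes between apoeb and apoc1. The control signals of apoa2 were 477 at 27 hpf, 145 at 30 hpf and 332 at 36 hpf, the same order as in apoa1a. The gene apoeb, for apolipoprotein E, had 217 at 24 hpf and 193 in the 48 hpf control, with 143 and 292 in the 30 hpf pair.

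Of 7 plasma protein genes above the filter, 1 fell and 2 rose, against 7.39% and 9.07% of all probe sets. The gene serpina1l, of the alpha-1-antitrypsin family of protease inhibitors, fell by 2.37 (SE 0.63, adjusted p = 0.0123). Its signals were 92.5 at 24 hpf, 61.8, 5.87, 16.3 and 8.20 in controls and 94.3, 92.1, 30.1 and 23.5 with ethanol, so it too was lowest on the 30 hpf control array. The gene rbp4, for the plasma carrier of retinol, rose by 3.11 ± 0.17 (SE, adjusted p = 2.87e-06), from 35.2 at 24 hpf to 391 in the 48 hpf control. Its relative rbp4l rose by 1.27 ± 0.27 (SE, adjusted p = 0.00326). The antithrombin gene serpinc1 stood at -0.28 ± 0.26 (adjusted p = 0.408) and had 42.6 and 54.2 in the 30 hpf pair.

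Among genes that handle fatty acids and iron, 1 of 8 was called, as lower with development, against 7.39% of all probe sets. The gene fabp2, for the intestinal fatty acid-binding protein, fell by 2.21 (SE 0.48, adjusted p = 0.00417), with signals of 27.0 (control) and 99.8 (ethanol) at 30 hpf. The forms fabp3 of muscle and heart and fabp7a of brain and retina stood at 0.01 ± 0.17 (adjusted p = 0.983) and 0.74 ± 0.20 (adjusted p = 0.0119, below the 2-fold limit). Of 5 iron transport genes, none was called. The ferritin gene fthl30 stood at 0.93 ± 0.28 (adjusted p = 0.0239, below the 2-fold limit). The iron exporter slc40a1 and the importer slc11a2 stood at 0.29 ± 0.24 and -0.43 ± 0.17, and at 30 hpf they differed by 0.24 and 0.40.

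Of 7 transcription factors of yolk and liver above the filter, 1 fell and 1 rose with development. Over all probe sets kept, 7.39% fell and 9.07% rose. The gene nr0b2a, a co-repressor of liver metabolism, fell by 1.64 (SE 0.34, adjusted p = 0.00281), and prox1a, a factor of liver and also of lens and retina, rose by 3.45 ± 0.31 (SE, adjusted p = 2.1e-05). The forkhead gene foxa2, which marks endoderm and also the ventral midline of the brain, had 28.7 (control) and 78.3 (ethanol) at 30 hpf. Its relative foxa1 had 26.8 and 47.2, and cebpb, of the C/EBP family, had 44.1 and 39.1. At 48 hpf the pair was 13.6 and 99.5 for foxa2, 11.8 and 56.3 for foxa1 and 32.1 and 212 for cebpb. Of 21 such factors in the table, 11, hnf4a among them, stayed below a signal of 20 on every array. The median difference of the 7 factors above the filter was 0.67 at 30 hpf and 1.87 at 48 hpf. At 48 hpf 4 were at least 2-fold brighter with ethanol, against 4.56% of all probe sets. The fourth was cebpd (32.5 and 206, named after its value was seen). Of 6 proteases listed for yolk and above the filter none was called. At 27, 30, 36 and 48 hpf, 6, 5, 6 and 5 of them were brighter with ethanol. Over all 6111 genes kept it was 3199, 3254, 2971 and 2816. The median difference of the 6 at 30 hpf was 0.45 (0.19 after centring each array on its median and 0.51 after quantile normalization). The slope of ctsc, for cathepsin C, was -0.96 ± 0.21 (adjusted p = 0.00435), just short of the 2-fold limit, and its 30 hpf difference was 1.11. The cathepsins ctsla and ctsd differed by 0.50 and 0.46 at 30 hpf.

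Several other genes listed for liver or the yolk syncytial layer were dim on every array, while other members of the lists were bright, such as apoa2 (at most 846). The liver fatty acid-binding gene fabp10a had signals of 3.21 to 11.2, and hnf4a, the nuclear receptor of liver and gut, had 0.36 to 3.27. The yolk syncytial regulator mxtx2 had 1.24 to 4.71, and mttp, which loads lipid onto B-type apolipoproteins, had 3.22 to 11.0. The vitellogenin genes vtg2, vtg3 and vtg4 reached at most 9.01, 5.22 and 2.95. In all, 49 of the 97 other yolk and liver genes in the table stayed below a signal of 20 on every array. That share was not counted over all genes, but the filter kept 35 of the 97, beside 6111 of all 8793 genes. The genes named in this paragraph fall outside the naming rule. At 30 hpf some genes below the filter were brighter with ethanol, such as the plasma protein genes fgg (10.2 in the control and 37.2 with ethanol) and plg (0.80 and 18.1). Others were dimmer by less, such as fabp10a (8.36 and 3.96, a log2(signal + 5) difference of -0.58) and mttp (8.47 and 5.68, -0.33). Among the genes below the filter this difference ran from -0.75 (gata4) to 1.99 (plg). None of these signals reached the median of its array. Probe sets differ in their response, so these low signals do not rank the transcripts against those of the 8 genes. No yolk or liver sample was measured at these stages, so how bright these genes would be in such tissue is not known.

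Across the 4 stages, limma with stage as a block called 1 of the 35 other yolk and liver genes higher with ethanol and 0 lower, against 1.62% and 0.624% of all probe sets. At an unadjusted p under 0.05 there were 13 higher and 0 lower. The share of all probe sets at that unadjusted limit was not counted, so these 2 counts have no baseline. The called gene was rbp4 (0.78 ± 0.15, SE over 4 stages, adjusted p = 0.0428). It was brighter with ethanol at 4 of 4 stages and, unlike the 8 genes, it rose over development. That call was lost without the 27, 30 or 36 hpf arrays (0 called each), with no filter, under quantile normalization and with groups from the treatment field. The fit by the treatment field left out the 30 hpf pair, so it and the fits without a stage used fewer arrays. The genes nearest to the 8 in profile were not called, with 0.99 ± 0.33 for apoa2 (adjusted p = 0.124) and 1.39 ± 0.37 for serpina1l (adjusted p = 0.0766). At 30 hpf alone, 8 of the 35 genes were at least 2-fold brighter with ethanol and 0 dimmer, against 3.06% and 0.333% of all probe sets. The 8 were apoa2, apoa4b.2, apoc2, apoeb, serpina1l, fabp2, foxa2 and ctsc, and the median difference of the 35 was 0.43, beside 0.03 over all genes kept. After centring each array on its median these medians were 0.17 and -0.22, and after quantile normalization 0.37 and -0.03, with 6 of the 35 genes past 2-fold under either.

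**Figure D3:**
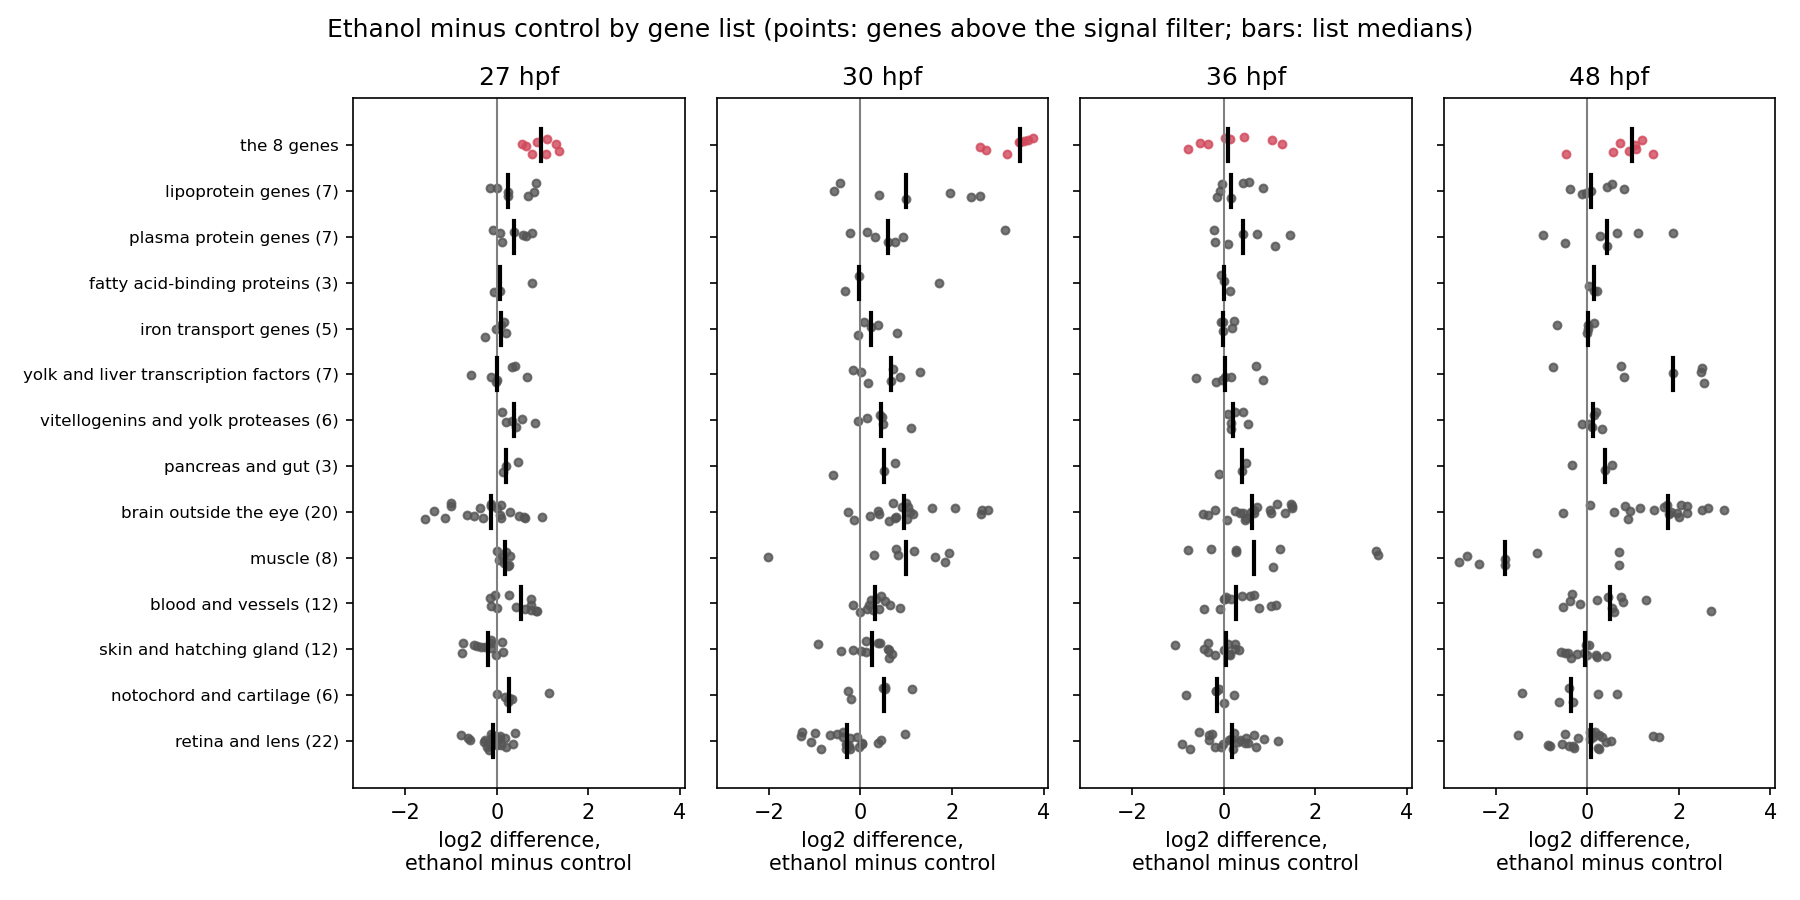
Log2 difference between the ethanol and the control array at each stage for the 8 genes (red) and for the genes of each list above the filter (grey, with their number), with list medians as black bars. The 8 genes have a median of 3.48 at 30 hpf and 0.08 at 36 hpf, while the brain list has medians of 0.95 and 0.62.

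Markers of other tissues also differed between the 30 hpf arrays. Over all 9301 probe sets kept, 3.06% were at least 2-fold brighter with ethanol at that stage and 0.333% at least 2-fold dimmer. Of 20 brain genes above the filter, 9 were at least 2-fold brighter with ethanol, led by the midbrain-hindbrain genes en2a (21.0 in the control and 174 with ethanol) and en2b (27.8 and 201). The median of the brain list was 0.95 (0.69 after centring each array on its median and 0.76 after quantile normalization), and its summed signal over 29 genes in the table was 1360.5 in the control and 2942 with ethanol. Of its 20 genes, 3 were called higher with development and 4 lower, against 9.07% and 7.39% of all probe sets. These arrays do not separate the signal of this list in brain from its signal in the eye itself. Of 8 muscle genes, 3 were at least 2-fold brighter. They were cardiac actin gene actc1a (149 and 548) and the cardiac genes tnnt2a (127 and 404) and myl7 (184 and 421). The genes tnnt2a and myl7 are named after their values were seen. The gene mb, for myoglobin, was dimmer (231 and 53.6), and the summed signal over 18 muscle genes was 893 and 1758. Retina and lens genes had a median of -0.30 (-0.55 after centring each array on its median and -0.20 after quantile normalization), 3 of 22 at least 2-fold dimmer and 0 brighter, and a summed signal over 23 genes of 12085 and 9915. The 3 were atoh7, the proneural gene of ganglion cells (358 and 143), nr2e3, a rod photoreceptor factor (57.2 and 20.6), and rx2, a retinal homeobox gene (193 and 88.3, named after its value was seen). Blood and vessel genes had a median of 0.32 (0.06 after centring and 0.17 after quantile normalization) with 0 of 12 past 2-fold, where mpx of neutrophils had 34.6 and 67.5 and the globin hbbe2 had 154 and 243. Skin genes had a median of 0.25, which centring brought to just below 0 and quantile normalization to 0.32, with 0 of 12 past 2-fold, where krt5 had 439 and 715 and krt1-19e 529 and 277. Notochord and cartilage genes had a median of 0.51 (0.25 after centring and 0.30 after quantile normalization) with 1 of 6, namely col2a1a (112 and 252), beside hapln1a (50.4 and 75.0). Of 20 pancreas and gut genes in the table, 16 stayed below a signal of 20 on every array and 3 passed the filter, beside 6111 of all 8793 genes. The epithelial genes epcam and krt8 had 257 and 440, and 833 and 1190. The part of these tissues in the 30 hpf difference of the 8 genes was not tested.

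The brain list and the 8 genes did not keep the same order at the other stages. At 27 hpf the 8 genes had a median of 0.97, with 8 of 8 above 0, and the brain list -0.13, with 9 of 20 above 0. At 36 hpf the medians were 0.08 and 0.62, and at 48 hpf 0.97 and 1.76. In muscle the medians were 0.18, 0.99, 0.67 and -1.79 from 27 to 48 hpf. The cardiac genes tnnt2a and myl7 differed by 1.64 and 1.17 at 30 hpf and by more, 3.32 and 3.36, at 36 hpf. For actc1a the difference was 1.84 at 30 hpf and 1.22 at 36 hpf. In retina and lens the medians were -0.09, -0.30, 0.18 and 0.08. Blood and vessel genes had 0.52, 0.32, 0.28 and 0.50. Centring each array on its median moved the median of all genes kept at 30 hpf from 0.03 to -0.22, and that of the 8 genes from 3.48 to 3.22. The differences between these lists were not tested.

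At a 2-fold limit, the low level of the 30 hpf control array was shared by few genes. The 8 genes were selected in part on their 30 hpf difference, which favours their place on such a list. Below their line by any amount were 15 of 20 brain genes (median -0.43) and 5 of 7 lipoprotein genes (-0.49). So were 10 of 12 skin genes (-0.29) and 5 of 6 notochord and cartilage genes (-0.18). For blood and vessels it was 8 of 12 (-0.07) and for muscle 5 of 8 (-0.19). Among retina and lens genes it was 8 of 22 (0.05), and over all genes kept 3324 of 6111 (-0.03). For the 2-fold limit, a gene counted only if its control signal was above the array median at 27, 30 or 36 hpf. Of 6111 genes kept, 27 were then at least 2-fold below their line from 27 to 36 hpf on the 30 hpf control array. They included the 8 genes, apoa2 and serpina1l from the other yolk and liver lists, and 17 further genes. These 17 are named after their values were seen, and they had no single profile. The correlation with the mean of the 8 genes was 0.73 to 0.91 for en2b, en2a and en1b of the midbrain-hindbrain region, dmbx1a of the midbrain, and gatm, of creatine synthesis. It was -0.61 to 0.62 for meis2b, lhx9, inhbaa, elmo2, tuba2, snap25b, nfia, neurod6b, mapk11, gng13b and 2 genes with clone names. The furthest of the 17 below the line was meis2b (-1.80), with 35.4, 13.1, 147 and 320.5 in controls from 27 to 48 hpf. The signals of gatm were 73.6, 24.3 and 42.4 in controls at 27, 30 and 36 hpf and 154, 162 and 75.0 with ethanol. Above the line by as much, under the same condition, were 13 of the genes kept, among them atoh7, which was 59.5, 358 and 514 in the same controls.

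By correlation with the mean profile of the 8 genes over the 9 arrays, the nearest of 6103 other genes were apoa2 (Pearson r = 0.99), serpina1l (0.98), meis1a (0.97), ctsc (0.96), plscr3b (0.96), apoa4b.2 (0.96), camk2d1 (0.95), apoc2 (0.95), flot1b (0.95) and sema4e (0.94). Of these 10 genes, 5 belonged to the yolk and liver lists. The other 5 matched in shape with a smaller range. Between the 30 hpf arrays, meis1a, for a homeobox factor, had 49.1 and 80.8, plscr3b, of the phospholipid scramblase family, 505 and 673, and flot1b, for a flotillin of membrane rafts, 232 and 273. The kinase gene camk2d1 had 19.2 and 33.9, and the semaphorin gene sema4e 26.0 and 45.9. In all, 27 of 6103 genes reached r of 0.9, and 7 of these were among the 35 yolk and liver genes compared. The correlation takes no account of size, and all genes share the same arrays.

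**Figure D4:**
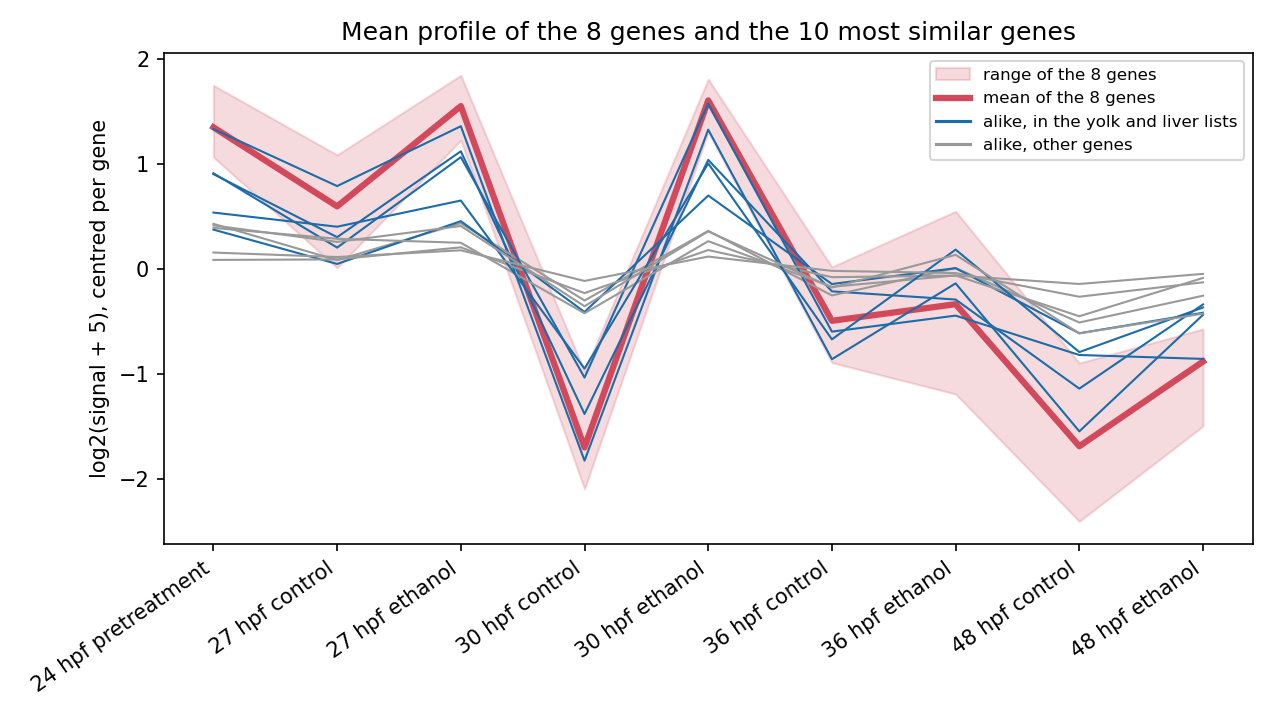
Mean of the 8 genes (red line) with their range (red band) over the 9 arrays, in log2(signal + 5) centred per gene, with the 10 genes of highest correlation, 5 of them in the yolk and liver lists (blue) and 5 not (grey). The mean of the 8 genes is -1.70 on the 30 hpf control array, 1.61 on the 30 hpf ethanol array and -1.69 in the 48 hpf control, and the grey genes span a narrower range.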

How the data were processed

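Total RNA of zebrafish embryonic eyes was measured on 9 Affymetrix arrays. The authors deposited MAS5 signal intensity per probe set, scaled per array (per the submitters' processing notes and the values). Of 15617 probe sets, 115 control probe sets were left out, and the upper 60% by mean log2(signal + 5) over the 9 arrays were kept (9301, mean signal above about 22.7). The brightest kept probe set stood for a gene. Values were tested with limma 3.58.1 in R 4.3.3 and Benjamini-Hochberg adjustment over all kept probe sets, at an adjusted p of 0.05. Development was the slope on hpf per 24 hours over 9 arrays with ethanol as a term, and a call also needed 2-fold. That fit took the 9 arrays as separate points, with 6 residual degrees of freedom. Its p-values therefore take no account of arrays that share a stage. Ethanol was tested over 8 arrays with stage as a block, with 3 residual degrees of freedom, and this pairing comes from the stage in the titles. A difference within 1 stage rests on 2 arrays, has no test, and counted as 2-fold only if the brighter signal was above its array's median. The filter on low signals, the added constant and the scaling bear on dim genes, whose fold changes on the log2(signal + 5) scale are understated. The fits were tested on simulated data. The 8 genes, the other lists and the tests were chosen with earlier results of these data known. Named genes of a yolk or liver list were those called in either fit and the 3 with the largest difference at 30 hpf whose brighter array was above its median, of each list of another tissue the 2 with the largest such difference, and the 10 of highest correlation with the 8 genes. Alternatives were other constants, filters and scalings, leaving out each stage or the 30 hpf control array, and groups by the treatment field.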

Additional observations from a re-analysis of the deposited data

Results flagged for a closer look

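For 3 of the 8 genes the difference between ethanol and control at 36 hpf was opposite in sign to that at 30 hpf, with log2 values of -0.35 for apobb.1, -0.78 for apoc1 and -0.52 for apoa4b.1. For apoa4b.1 the sign was also opposite at 48 hpf, at -0.46, where both signals were dim (15.3 in the control and 9.75 with ethanol). Each stage has 1 array per group, and the change of sign between stages was not tested.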

How the results depend on the processing

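With the 2-fold count at 30 hpf taken over the upper 30% of probe sets, 2 of the 8 genes passed the filter and both were counted, and 2 of 19 other yolk and liver genes were counted in place of 8 of 35. With log2(signal + 16), the median difference of the 8 genes at 30 hpf was 2.88 and the median distance of the 30 hpf control from its line was -1.63. Their median slope over development was -4.14 without the 48 hpf arrays. Of the other yolk and liver genes, 7 were higher with development when no filter was used (97 genes), in place of 3. Lower with development were 1 in the upper 30%, 3 without the 48 hpf arrays, 3 in untreated arrays alone and 2 with groups from the treatment field, in place of 6. Higher with ethanol, in place of 1 (13 at an unadjusted p under 0.05 with limma), were 0 with no filter (23), 0 under quantile normalization (7), 0 without the 27 (12), 30 (10) or 36 (13) hpf arrays, 0 with groups from the treatment field (1), and 2 in the upper 30% (4) and without the 48 hpf arrays (14). The counts at an unadjusted p have no share over all probe sets beside them. The cause of these shifts was not tested, except that the upper 30% tests fewer genes and a left-out stage leaves fewer arrays. The ethanol fit by the treatment field also left out the 30 hpf pair. The medians of the 8 genes given in this paragraph kept their sign in the settings run for them. Of the list medians at 30 hpf, that of skin genes went from 0.25 to just below 0, that of iron transport genes from 0.24 to -0.02 and that of all genes kept from 0.03 to -0.22 when each array was centred on its median. Quantile normalization took that of all genes kept to -0.03 and that of fatty acid-binding genes from -0.03 to 0.13. Each of the 8 genes has 1 probe set, so taking the median over probe sets gives the same values. The ethanol fit pairs the arrays by stage. With 1 array for each condition there was no replicate number to block on. The number of arrays limits every value, and signals near background are imprecise.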
